A study of Bos taurus with 170 samples.

Results

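The genes described here are 5 genes of secreted and matrix proteins, GRO1 (better known as CXCL1, and listed as GRO1 in the files), IL18, C3, COL1A1 and ADAMTS1, out of 10772 genes with counts in single blastomeres of early bovine embryos. They were chosen by name, on the basis of the difference between Day 3 and Day 2 embryos in these same data, so their levels on the 2 days are given as a description and without a test. Tests are given only for what that choice did not use directly. The blastomeres came from Bos taurus embryos produced in vitro, by maturation of oocytes from slaughterhouse ovaries, fertilization with frozen-thawed sperm and culture in synthetic oviductal fluid. The 6 Day 2 embryos were labelled as 8-cell stage and the 8 Day 3 embryos as 16-cell stage, and no embryo of either day was treated. Zona pellucida and cumulus cells had been removed before the embryos were taken apart into single cells, and the embryo is the replicate throughout.

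At the 8- to 16-cell stage the bovine embryo takes over transcription from its own genome, while RNA stored in the oocyte is broken down. GRO1/CXCL1 is a chemokine that attracts neutrophils through the receptor CXCR2. IL18 is a cytokine of the interleukin-1 family that is made as a precursor and cut by caspase-1. C3 is the central protein of the complement cascade. COL1A1 encodes the alpha-1 chain of type I collagen, the main fibrous collagen of connective tissue, which is normally assembled with the alpha-2 chain encoded by COL1A2. ADAMTS1 is a secreted metalloprotease that cleaves proteoglycans such as versican. All 5 products leave the cell, and all 5 genes are better known from immune, stromal or ovarian cells than from cleavage-stage blastomeres.

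Cells with at least 2000 unique molecular identifiers (UMI, one per captured mRNA molecule) were kept, 43 of 47 on Day 2 and 118 of 123 on Day 3. Day 2 cells were deeper, with a median of 75114 UMI on genes against 24017 on Day 3. Day 3 embryos lay on 3 plates, Day3-E1 to Day3-E4 on plate 1. Day2-E1 to Day2-E4 lay on plate 3 and Day2-E5 and Day2-E6 on plate 2, so plate 1 held Day 3 embryos only. The labels reuse 77 of 93 cell barcodes for a second cell. One set of barcodes was used for every Day 2 embryo and for Day3-E1 and Day3-E2, another for Day3-E4 to Day3-E8, and for Day3-E3 the labels leave the set undecided. Day and barcode set therefore overlap and cannot be told apart for most embryos. Spike-in RNA took 1.38 to 1.52% of the UMI in Day 2 embryos and 1.3995 to 1.46% in Day3-E1 to Day3-E3, against 2.43 to 2.98% in Day3-E4 to Day3-E8.

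On Day 2 the 5 genes were close to the limit of counting. The unit of level is CPM, counts per 1000000 UMI on genes after summing the cells of an embryo. Over the 6 Day 2 embryos together the counts were 11 UMI of GRO1, 15 of IL18, 7 of C3, 6 of COL1A1 and 4 of ADAMTS1. The highest count in any Day 2 cell was 3 UMI, of IL18. Only IL18 had a UMI in all 6 Day 2 embryos, whereas ADAMTS1 had none in 3 of them. A count of 0 in these embryos allows a level of up to 3.84 to 6.84 CPM, taking 3 counts as the limit.

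GRO1 was the most uneven of the 5 among Day 3 embryos. Its lowest, median and highest Day 2 levels were 0, 2.91 and 4.27 CPM. On Day 3 they were 5.20 CPM in Day3-E5, 64.9 CPM at the median and 471 CPM in Day3-E2. Every Day 3 embryo lay above every Day 2 embryo, but Day3-E5 held only 2 UMI, and 2 Day 2 embryos held 3. The Day 3 level was 121 ± 158 CPM (SD, n = 8), so the spread between embryos exceeded the mean. Summed over embryos, UMI of GRO1 were 37.4 times as frequent on Day 3 (95% interval 20.6 to 75.6, counting error only), and the fitted log2 fold change was 5.68 (standard error 1.02). The highest Day 3 embryo was 90.7 times the lowest.

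IL18 was the most abundant of the 5 on Day 3. On Day 2 it ranged from 1.28 to 7.92 CPM with a median of 3.28. On Day 3 the lowest level was 21.7 CPM in Day3-E1, the median 109 CPM and the highest 314 CPM, reached in both Day3-E8 and Day3-E4. The groups did not overlap. The Day 3 mean was 149 ± 120 CPM (SD, n = 8), and the log2 fold change was 5.65 (standard error 0.79). Its SD was 0.80 times the mean on Day 3, against 1.303 times for GRO1.

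C3 was the least abundant on Day 3, at 23.4 ± 14.71 CPM (SD, n = 8) from 67 UMI in all. Day 2 embryos ranged from 0 to 3.04 CPM with a median of 1.80. Day 3 embryos ranged from 5.00 CPM in Day3-E1 to 48.5 CPM in Day3-E7 with a median of 23.7. The groups did not overlap, although the 3 UMI of Day3-E1 and the 3 UMI of Day3-E5 were few. C3 did not pass the filter on low counts of edgeR, and DESeq2, fitted without that filter, gave a log2 fold change of 4.02 (standard error 0.74). Its UMI were 12.2 times as frequent on Day 3 (95% interval 5.62 to 31.6, counting error only).

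COL1A1 had a Day 2 range of 0 to 3.26 CPM and a median of 1.401. Its Day 3 levels ran from 11.66 CPM in Day3-E1 over a median of 64.1 CPM to 118 CPM in Day3-E8, again without overlap between the days. The Day 3 mean was 63.9 ± 40.9 CPM (SD, n = 8) and the log2 fold change 5.56 (standard error 0.74). Together with C3 it was the most even of the 5 across embryos, with an SD of 0.64 times the mean on Day 3 against 0.63 for C3.

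ADAMTS1 was the only member whose groups overlapped. On Day 2 its levels ran from 0 to 2.17 CPM with a median of 0.66. Day3-E1 held no UMI of ADAMTS1 among 600185 UMI on genes, which allows a level of up to 5.00 CPM. The other 7 Day 3 embryos lay above all Day 2 embryos, from 13.56 CPM in Day3-E2 to 193 CPM in Day3-E6, and the Day 3 median was 58.1 CPM. The log2 fold change was 6.06 (standard error 1.00). The level of Day3-E6 rested in part on 1 cell: without its deepest cell, which held 108376 UMI, the embryo stood at 101 CPM. That was close to the 98.6 CPM of Day3-E4, the next embryo.

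Of the 5 genes, 4 passed the filter on low counts, and a gene that was nearly absent on Day 2 could pass it only through Day 3. The filter depended on single embryos: GRO1, COL1A1 and ADAMTS1 each fell below it in 6 of the 8 fits without 1 Day 3 embryo, and C3 passed it in all 6 fits without 1 Day 2 embryo. By fold change they took ranks 2 (ADAMTS1), 4 (GRO1), 5 (IL18) and 6 (COL1A1) among the 1117 genes called higher on Day 3, which were 21.2% of the 5274 genes tested. The 2 days did not overlap, with Day 3 higher, for 4 of the 5 genes and for 2.33% of all 10772 genes. Both counts restate how the genes were chosen.

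**Figure D1:**
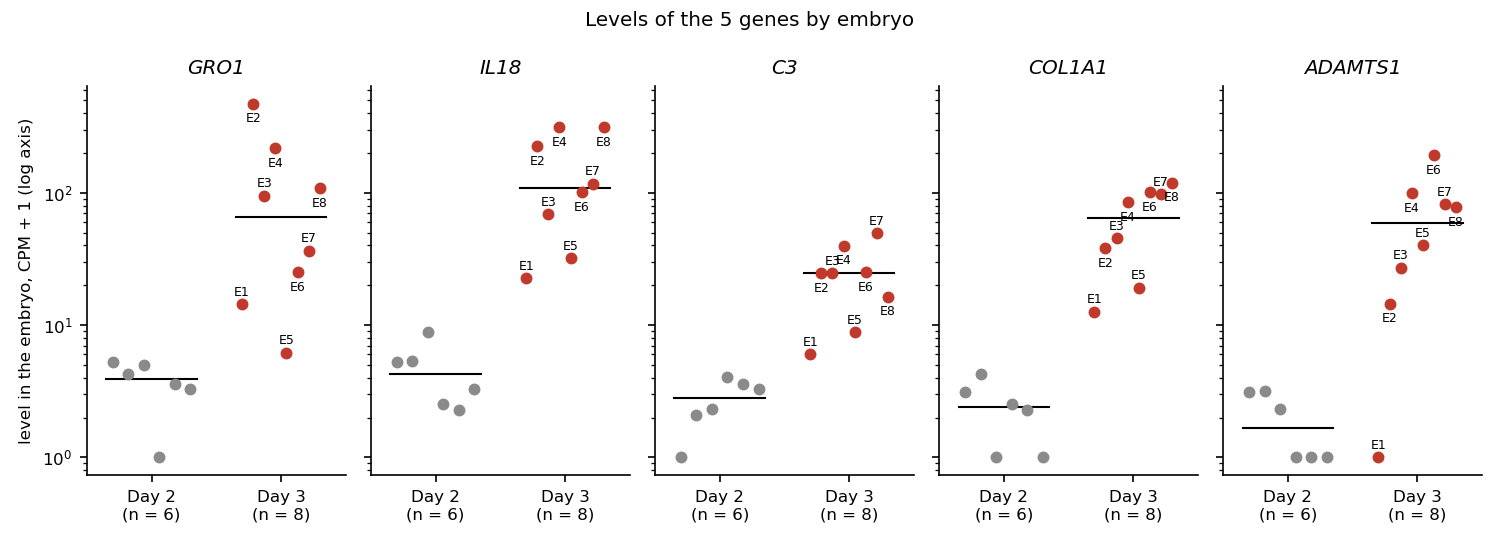
Level of each gene in each embryo, as CPM + 1 on a log axis, for 6 Day 2 embryos (grey) and 8 Day 3 embryos (red, numbered). Points are embryos and horizontal lines are medians; the Day 3 points of GRO1 spread from 5.20 to 471 CPM, and Day3-E1 sits at 0 for ADAMTS1.

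To compare cells at equal depth, the share of cells with at least 1 UMI was computed for a draw of 10000 UMI from each of the 37 Day 2 and 103 Day 3 cells that held as many. On Day 2 this share averaged 4.11 ± 2.82% for GRO1, 3.53 ± 1.18% for IL18, 2.21 ± 1.46% for C3, 0.90 ± 0.97% for COL1A1 and 0.57 ± 0.67% for ADAMTS1 (SD, n = 6). On Day 3 IL18 led with 57.9 ± 29.8% of cells. GRO1 followed with 41.1 ± 30.7%, COL1A1 with 39.7 ± 21.9%, ADAMTS1 with 29.9 ± 19.1% and C3 with 19.3 ± 10.65% (SD, n = 8). The SDs of these Day 3 shares were large enough that GRO1, COL1A1 and ADAMTS1 lay within 1 SD of each other.

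Between embryos the shares ran from near the Day 2 range to almost every cell. For GRO1, 94.9% of the cells of Day3-E2 would hold a UMI at this depth and 5.50% of those of Day3-E5, which lies inside the Day 2 range of 0 to 8.45%. For IL18 the share was 96.5% in Day3-E8 and 17.98% in Day3-E1, above the highest Day 2 value of 5.24%. ADAMTS1 never exceeded 52.9% (Day3-E4), and C3 never exceeded 34.0% (Day3-E7). COL1A1 ranged from 7.164% in Day3-E1 to 63.5% in Day3-E4. Without thinning, the mean Day 3 shares were 72.9% for IL18, 56.1% for COL1A1, 55.2% for GRO1, 43.2% for ADAMTS1 and 36.9% for C3, and the Day 2 shares, from deeper cells, were 8.86 to 25.5%.

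**Figure D2:**
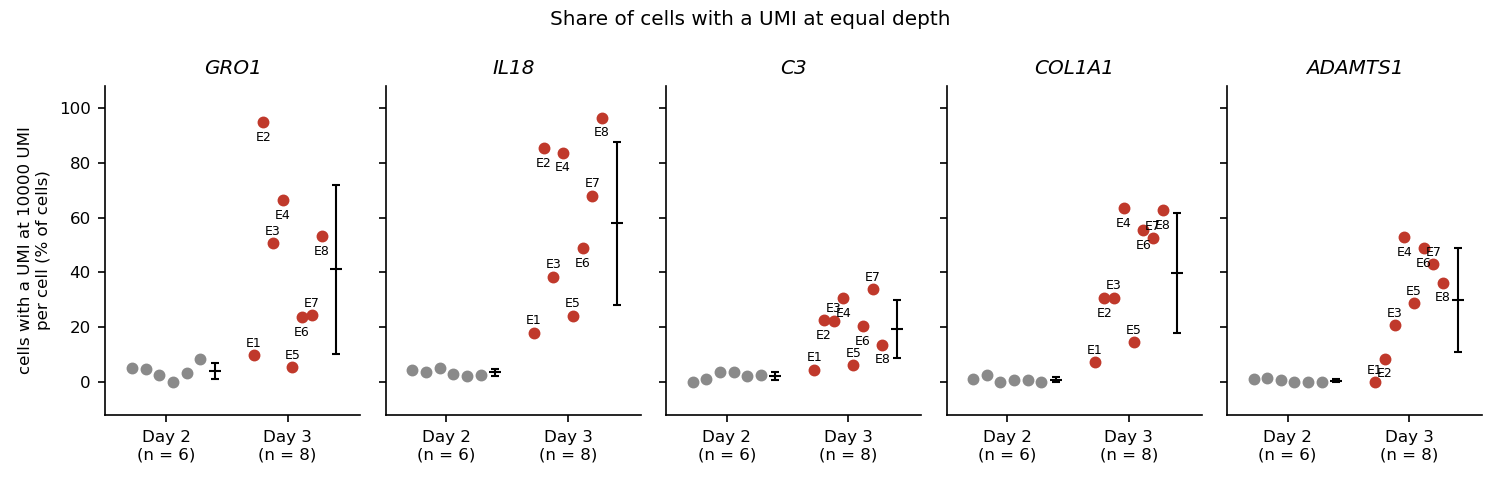
Percent of cells expected to hold a UMI of each gene at 10000 UMI per cell, for each Day 2 (grey) and Day 3 (red, numbered) embryo, with the mean ± SD over embryos at the side. Day 2 shares stay between 0 and 8.45%, while Day 3 shares reach 96.5% for IL18 and no more than 34.0% for C3.

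Day3-E1 was low for all 5 genes and Day3-E5 for 4 of them, and the leading embryo was not the same for every gene. Day3-E1 was lowest for IL18, C3, COL1A1 and ADAMTS1 and second lowest for GRO1. Day3-E5 was lowest for GRO1 and second lowest for IL18, C3 and COL1A1, but for ADAMTS1 it stood at 39.0 CPM, above Day3-E3, Day3-E2 and Day3-E1. At the upper end, Day3-E2 led for GRO1, Day3-E8 for IL18 and COL1A1, Day3-E7 for C3 and Day3-E6 for ADAMTS1. Day3-E4 was among the first 4 for each of the 5 genes and second for 4 of them. In Day3-E2 to Day3-E8 all 5 genes exceeded their Day 2 maximum, and in Day3-E1 4 of 5 did.

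Opposite profiles were clearest between Day3-E2 and Day3-E6. Day3-E2 held 139 UMI of GRO1 and 4 of ADAMTS1, while Day3-E6 held 11 UMI of GRO1 and 88 of ADAMTS1. Their IL18 levels were 224 and 101 CPM. In the order of the 8 embryos by level, few neighbours stood apart by more than counting error. The 95% counting intervals of neighbouring embryos were separate for 3 of 7 neighbouring pairs for GRO1, 1 of 7 for IL18, 1 of 7 for ADAMTS1 and 0 of 7 for C3 and COL1A1.

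Over the 8 Day 3 embryos all 10 pairs of genes had a positive Pearson correlation of log2(CPM + 1). The highest was between COL1A1 and ADAMTS1, with r = 0.84 (two-sided exact permutation p = 0.00583, adjusted p = 0.0495 over 10 pairs) and rho = 0.76 (exact p = 0.0368, adjusted p = 0.174). For GRO1 and IL18 r was 0.82 (exact p = 0.0138, adjusted p = 0.0495) and rho 0.81 (exact p = 0.0218, adjusted p = 0.174). When the 2 embryos farthest from the median of the first gene were left out, r was 0.90 for COL1A1 and ADAMTS1 (without Day3-E1 and Day3-E5, unadjusted exact permutation p = 0.0306) and 0.80 for GRO1 and IL18 (without Day3-E2 and Day3-E5, unadjusted exact permutation p = 0.0556). For IL18 with COL1A1 r was 0.80 (exact p = 0.018, adjusted p = 0.0495; rho = 0.71, adjusted p = 0.174), and for C3 with COL1A1 0.79 (exact p = 0.0198, adjusted p = 0.0495; rho = 0.55, adjusted p = 0.328). The last 2 rested on Day3-E1 and Day3-E5, since r fell to 0.25 and 0.07 without them. The lowest relation was that of GRO1 with ADAMTS1 (r = 0.17, exact p = 0.709; rho = 0.05, exact p = 0.935, adjusted p = 0.709 and 0.935).

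All 4 relations that passed missed the threshold under 3 of the 4 alternative settings, including the one without Day3-E1, where adjusted p by exact permutation was 0.264 to 0.358. None of the 10 passed by rho, where 2 pairs had an unadjusted exact p below 0.05. The second barcode set held 5 Day 3 embryos and each plate at most 4, fewer than the 6 taken as the minimum for a correlation, so none was computed within a batch. A high r was also frequent with IL18 over these embryos, and rarer with the other members. The r of GRO1 with IL18 exceeded that of 87.0% of the tested genes with IL18 and 97.3% of those with GRO1, and the r of COL1A1 with ADAMTS1 exceeded 94.6% and 98.1%, respectively. These percentages compare with all tested genes, whose median r was -0.25 with GRO1 and -0.47 with IL18, and not with the 1117 genes called higher. Because the members were chosen for rising on Day 3, their positive r values and these percentages may partly restate that choice. This was not tested. Of 5273 genes, 387 had r above 0.9 with IL18, 91 with COL1A1, 38 with ADAMTS1 and 36 with GRO1.

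The order of the 8 embryos by IL18 was the same as their order by the summed level of 18 other genes that the study lists as first transcribed at the 8-cell stage. The study took these genes from earlier work and kept those detected in these cells, so the choice was not independent of the data. The sum ran from 2039 CPM in Day3-E8, 1937 in Day3-E4 and 983 in Day3-E2 to 250 in Day3-E5 and 125 in Day3-E1, against 85.2 to 162 CPM in Day 2 embryos. Day3-E1 thus lay within the Day 2 range for this sum, and it was the embryo without ADAMTS1. The orders of the other 4 genes departed from it. Day3-E2 led for GRO1 and was next to last for ADAMTS1, Day3-E8 was below Day3-E3 for C3, and Day3-E6 and Day3-E7 were above Day3-E4 for COL1A1. The departures named for C3 and COL1A1 were within counting error. The order by IL18 was also loose, with 314.1 CPM in Day3-E8 and 313.8 CPM in Day3-E4. Its counting intervals were separate for only 1 of 7 neighbouring pairs.

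**Figure D3:**
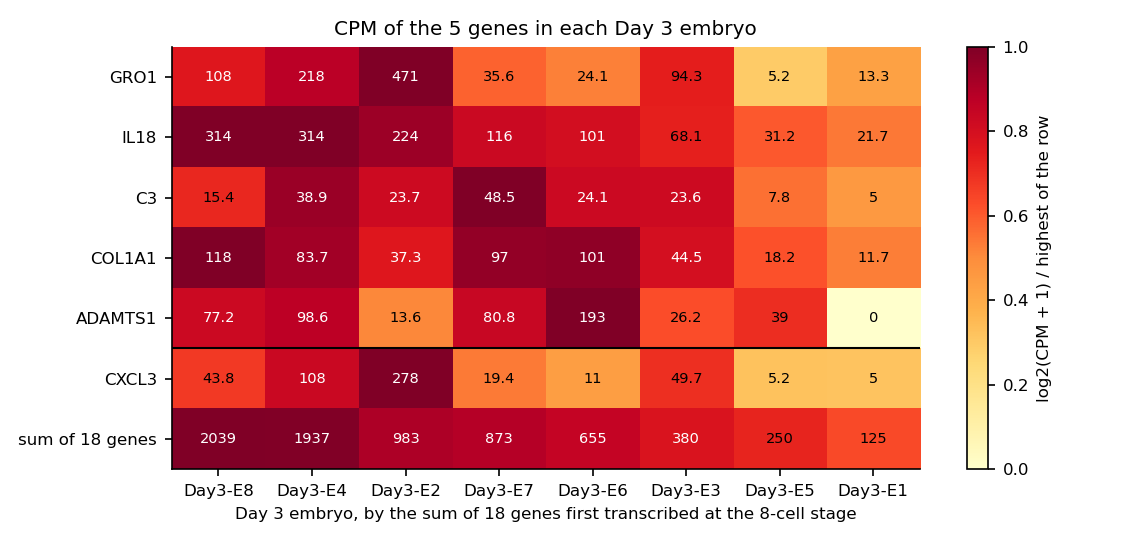
CPM of the 5 genes in each Day 3 embryo (columns, ordered by the summed level of 18 genes first transcribed at the 8-cell stage), with CXCL3 and that sum below the line. Colour is log2(CPM + 1) as a share of the highest value of the row; IL18 falls from left to right, whereas GRO1 peaks in Day3-E2 at 471 CPM and ADAMTS1 in Day3-E6 at 193 CPM.

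Plate 1 (Day3-E1 to Day3-E4) and plates 2 and 3 (Day3-E5 to Day3-E8) were compared across all genes, a contrast that played no part in the choice of the genes. By the study's collection times, all embryos of plate 1 were collected earlier after fertilization than those of plates 2 and 3. Plate and collection time therefore cannot be told apart here. By edgeR's quasi-likelihood test 0 of 4832 genes (0%) passed an adjusted p of 0.05, 147 had an unadjusted p below it, and DESeq2 also called 0 genes. GRO1 was at 199 ± 200 CPM on plate 1 and 43.2 ± 45.0 CPM on plates 2 and 3 (SD, n = 4 each), a log2 difference of 2.04 (standard error 1.04, edgeR adjusted p = 1.00). ADAMTS1 was at 34.6 ± 44.0 and 97.5 ± 66.4 CPM, a log2 difference of -1.47 (standard error 0.99, edgeR adjusted p = 1.00). IL18 was even, with 157 ± 136 and 141 ± 121 CPM and a log2 difference of 0.05 (standard error 0.89). COL1A1 was at 44.3 ± 29.8 and 83.6 ± 44.6 CPM. With 4 embryos a side, differences of this size were within the spread between embryos.

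By barcode set, the mean GRO1 level was 242 CPM in Day3-E1 and Day3-E2 and 78.2 CPM in Day3-E4 to Day3-E8. ADAMTS1 was at 6.78 and 97.7 CPM and COL1A1 at 24.5 and 83.6 CPM in the same embryos. With 2 embryos in the first set these values were not tested, and the part of the barcode set in them was not tested.

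In single Day 3 cells a UMI of IL18 was found in 85 of 118 cells, of COL1A1 in 65, of GRO1 in 64, of ADAMTS1 in 51 and of C3 in 43. Cells with a UMI held a median of 4 UMI of IL18, 2.5 of GRO1, 2 of COL1A1 and ADAMTS1 and 1 of C3. The maxima were 27 UMI of GRO1 in Day3-E2, 20 of IL18 in Day3-E4, 11 of COL1A1 in Day3-E7, 53 of ADAMTS1 in Day3-E6 and 5 of C3 in Day3-E4. A single UMI at the median Day 3 depth is worth 41.6 CPM, so a cell without a UMI is not a cell without the transcript.

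Some Day 3 cells held all 5 members, but fewer than expected from each gene's level in its embryo with counting error only. That expectation was 19.5 cells with all 5 and 31.6 cells with 4, where 13 and 21 were seen. Cells with 3 or fewer members, or with none, were more frequent than it gave. These differences were not tested. All 5 genes had a UMI in 13 Day 3 cells, 4 of them in Day3-E4, 3 each in Day3-E6 and Day3-E8, 2 in Day3-E7 and 1 in Day3-E3. None of the 5 had a UMI in 14 cells, of which 6 held fewer than 10000 UMI. These 14 were mostly cells of Day3-E1 (6) and Day3-E5 (5). The 13 cells with all 5 were deep, with a median of 32634 UMI on genes. On Day 2 no cell held more than 3 of the 5, and 22 of 43 held none.

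Whether a gene was seen in a cell depended on the embryo and on depth, so cells with both genes of a pair were counted beside 2 expectations. The first takes each gene at its embryo's level with counting error only, and the second multiplies the shares of cells with a UMI within each embryo and ignores depth. GRO1 and IL18 were both seen in 54 Day 3 cells, where the first expectation was 65.8 and the second 49.5. IL18 and COL1A1 were both seen in 58 cells (66.8 and 52.7 expected). GRO1 and C3 were both seen in 31 cells (33.1 and 24.7 expected). For ADAMTS1 the counts were 29 cells with GRO1 (45.2 and 26.7 expected), 39 with IL18 (58.9 and 38.5) and 34 with COL1A1 (52.6 and 33.1). All 10 pairs fell below the first expectation and above the second, from 1.01 times the second for IL18 with ADAMTS1 to 1.25 times for GRO1 with C3. For the 3 pairs of ADAMTS1 just named, the ratio to the first expectation was 0.64 (95% interval 0.43 to 0.92), 0.66 (0.47 to 0.91) and 0.65 (0.45 to 0.90), intervals that leave out 1, while those of the other 7 pairs include it. They cover counting error of the observed number only and take cells as independent, which cells of 1 embryo are not. The first expectation also takes each gene as even between siblings. ADAMTS1, counted with or without the other genes, was seen in 9 cells of Day3-E8, where 12.28 were expected on that basis. It was also below that expectation in Day3-E2 to Day3-E4, Day3-E6 and Day3-E7, but not in Day3-E5. A ratio below 1 to the first expectation therefore cannot show how the genes of a pair share cells. Nor can the number of cells with all 5. The difference from the second expectation was not tested.

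**Figure D4:**
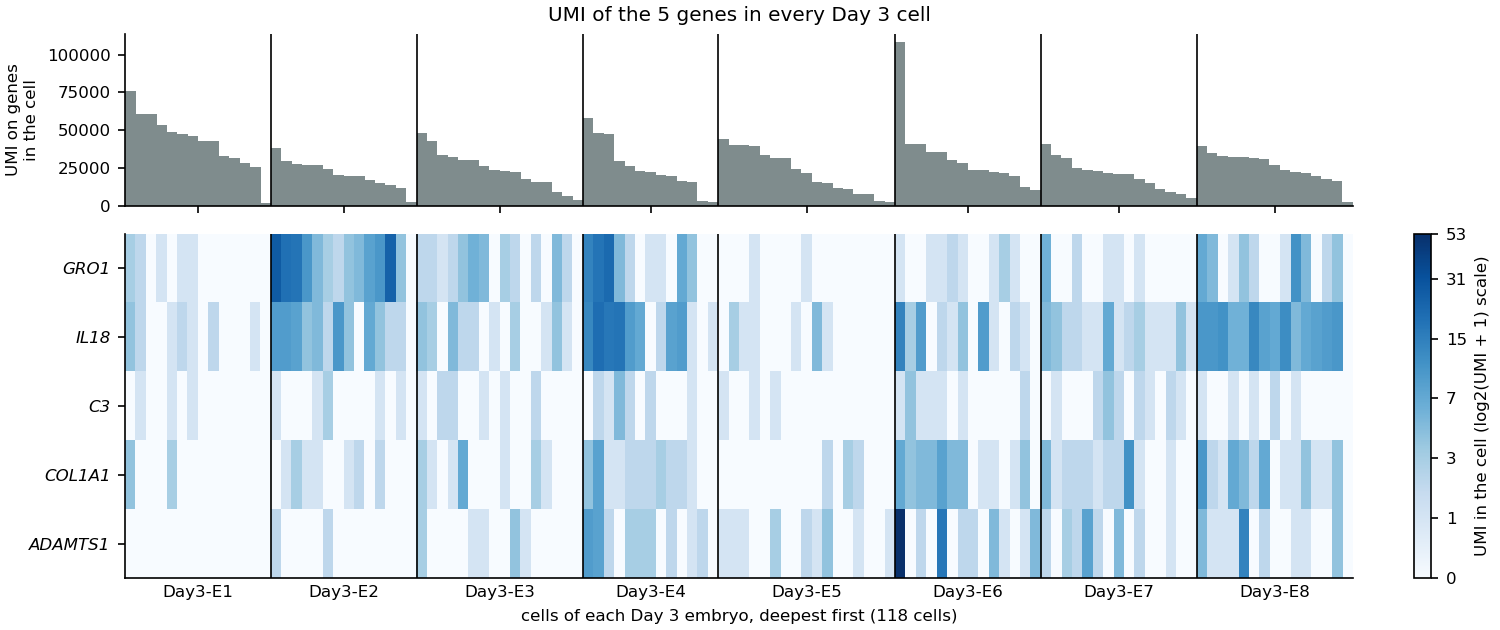
UMI of the 5 genes in each of the 118 Day 3 cells (columns, grouped by embryo, deepest first), with the depth of each cell in UMI on genes above. Colour is the UMI count on a log2(UMI + 1) scale; IL18 fills nearly all cells of Day3-E8, and ADAMTS1 concentrates in a few cells of Day3-E6 and Day3-E8.

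Sibling cells differed less in IL18 than in ADAMTS1 in each of the 4 embryos in which both could be computed, by little in Day3-E4 and by more in the other 3. The spread is given as the relative variance between siblings beyond counting error (0 where only counting acts), for embryos with at least 20 UMI of the gene. For IL18 it ran from 0.01 (Day3-E8), 0.07 (Day3-E2), 0.10 (Day3-E7) and 0.13 (Day3-E4) to 0.24 (Day3-E3) and 0.33 (Day3-E6). For ADAMTS1 it ran from 0.17 (Day3-E4) and 0.91 (Day3-E7) to 1.71 (Day3-E6) and 2.27 (Day3-E8). The median over all genes with at least 20 UMI was 0.04 to 0.15 in these embryos. ADAMTS1 exceeded 99.9% of such genes in Day3-E8 and 99.7% in Day3-E6, while IL18 exceeded 16.97% and 86.3% of them. With 4 embryos a paired exact test cannot reach 0.05.

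In Day3-E8 14 of 15 cells held IL18, between 5 and 13 UMI each, and the remaining cell had only 2821 UMI. In Day3-E7 all 15 cells held IL18, although the counting expectation at that level was 12.7 cells. ADAMTS1 was distributed differently in the same embryos. In Day3-E8, cell 12 held 14 of 30 UMI, and 6 of 15 cells held none. In Day3-E6, cell 13 held 53 and cell 10 held 17 of 88 UMI, whereas cells 5, 6, 11, 12 and 14 held none at depths that predicted 3.81 to 7.94 UMI at the embryo's level, or 1.99 to 4.14 UMI at its level without cell 13. Cell 13 was also the deepest Day 3 cell, with 23.8% of the UMI of its embryo but 60.2% of its ADAMTS1. Without it the relative variance of ADAMTS1 in Day3-E6 was 2.33 in place of 1.71 and that of IL18 0.90 in place of 0.33, so the IL18 value of this embryo depended on 1 cell.

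For GRO1 the relative variance ran from 0.32 (Day3-E3), 0.37 (Day3-E2) and 0.39 (Day3-E4) to 0.84 (Day3-E8), above 87.8 to 97.1% of the genes with at least 20 UMI. IL18 was lower than GRO1 in 4 of 4 embryos, and GRO1 was lower than ADAMTS1 in 1 of 2, Day3-E8, and higher in Day3-E4. In Day3-E2 cell 7 held 24 UMI of GRO1 where 6.64 were expected at the embryo's level. In Day3-E4 cells 5 and 7 held no GRO1 where 5.03 and 4.36 UMI were expected, and the same cells held 7 and 8 UMI of IL18. Cell 3 of Day3-E4 showed the reverse, with no IL18 where 7.05 UMI were expected, and 1 UMI of GRO1.

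COL1A1 was near the median of all genes in Day3-E4 (0.05) and Day3-E6 (0.13) but at 0.98 in Day3-E7, where cell 14 held 11 of 30 UMI. In Day3-E8 it was 0.34. C3 never reached 20 UMI in an embryo, so its spread between siblings could not be told from counting error.

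**Figure D5:**
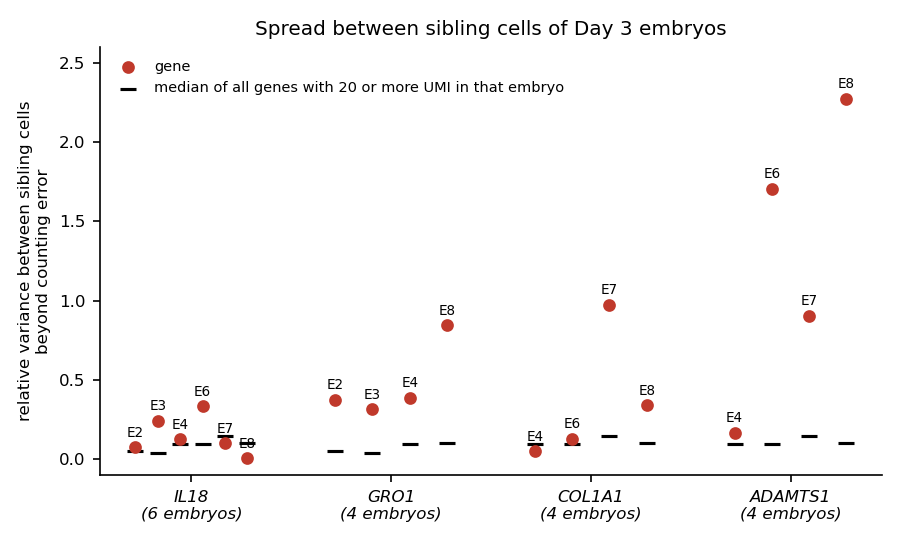
Relative variance between sibling cells beyond counting error for 4 genes in the Day 3 embryos with at least 20 UMI of the gene (red points, numbered), beside the median of all genes with at least 20 UMI in that embryo (black dashes). IL18 stays at or below 0.33 (0.90 in Day3-E6 without its deepest cell), and ADAMTS1 reaches 1.71 in Day3-E6 and 2.27 in Day3-E8.

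CXCL3 and CXCL2 encode chemokines closely related to GRO1, and short reads from the 3 genes may be split or exchanged, so the GRO1 count is uncertain to that extent. On Day 3 CXCL3 was highest in the same 4 embryos as GRO1 and mostly in the same cells. It had 7 UMI on Day 2 and 170 on Day 3, with 278 CPM (Day3-E2), 107.6 (Day3-E4), 49.7 (Day3-E3), 43.8 (Day3-E8) and 5.00 to 19.4 CPM in the other 4 embryos. Of 51 Day 3 cells with CXCL3, 47 also held GRO1, and in Day3-E2 the 13 cells with one were the 13 with the other, whereas in Day3-E5 no cell held both. On Day 2 1 of 5 cells with CXCL3 held GRO1. CXCL3 did not pass the filter on low counts for edgeR, and DESeq2, fitted without that filter, called it at a log2 fold change of 5.26. CXCL2, named after its values were seen, had 1 UMI on Day 2 and 5 on Day 3. The other CXC chemokines and receptors included CXCR4, the receptor of CXCL12, at 94.1 ± 5.24 CPM on Day 2 (SD, n = 6) and 80.8 ± 31.8 CPM on Day 3 (SD, n = 8). Of the 13 such genes in the table other than GRO1, 2 were tested and 0 were called by edgeR, none with an unadjusted p below 0.05, and 1 by DESeq2, which called 29.5% of the 8683 genes it tested and 20.0% as higher. Their median log2 change was 0.19, and that of all tested genes was -0.04.

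Of 12 genes of the interleukin-1 and interleukin-18 pathway other than IL18, 3 were tested and 1 was called, where 32.5% of all tested genes were called. IRAK4, a kinase acting downstream of the interleukin-1 and interleukin-18 receptors, rose from 25.2 ± 4.76 to 49.96 ± 15.7 CPM (log2 fold change 1.26, standard error 0.29, edgeR adjusted p = 0.0037). MYD88, the adaptor of these receptors, was at 42.6 ± 20.0 and 19.1 ± 13.797 CPM and did not pass (log2 fold change -0.91, edgeR adjusted p = 0.114). IL1A, another cytokine of the family, had 1 UMI on Day 2 and 28 on Day 3 and was called by DESeq2 only, as were IL33 and IRAK2, all 3 named after their values were seen. DESeq2 thus called 4 of the 12, all higher. The median log2 change of the 3 genes tested by edgeR was -0.46.

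NF-kB is the transcription factor family that acts downstream of those receptors and is known to drive CXCL1. Of 20 such factors and regulators in the table, 14 were tested, 2 rose and 2 fell, against 32.5% of all tested genes called in either direction. NFKBIB, an inhibitor of NF-kB, rose from 42.5 ± 14.72 to 131 ± 83.1 CPM (log2 fold change 2.00, standard error 0.47, edgeR adjusted p = 0.0045). MAP3K7, the kinase TAK1, also rose (log2 fold change 1.61, standard error 0.45, edgeR adjusted p = 0.0125). NFKBIA, the other main inhibitor, fell by 0.95 on the log2 scale (standard error 0.24, edgeR adjusted p = 0.00702). CHUK, a kinase of the complex that inactivates the inhibitors, fell by 0.60 (standard error 0.20, edgeR adjusted p = 0.0285). The median of the 14 was -0.24, and the 4 calls were also made by DESeq2 and without TMM, in the same directions. DESeq2 called 2 more, both higher and named after their values were seen, NFKBIZ (log2 fold change 3.88) and TNFAIP3 (3.34), which gave 4 higher and 2 lower.

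Complement genes other than C3 gave 0 calls by edgeR among 2 tested of 17 in the table, with 1 at an unadjusted p below 0.05, and 2 calls by DESeq2 (1 higher, 1 lower). CD46, a membrane cofactor that inactivates C3 fragments, was at 43.9 ± 12.8 CPM on Day 2 and 64.1 ± 26.3 CPM on Day 3 (log2 fold change 0.85, standard error 0.34, edgeR adjusted p = 0.0632). Clusterin (CLU) was at 58.4 ± 17.5 and 74.8 ± 38.9 CPM. The receptor for the C3a fragment, C3AR1, named after its values were seen, had 1 UMI in all 14 embryos.

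COL1A1 was not accompanied by its partner chain. COL1A2 had 24 UMI on Day 2 and 7 on Day 3, that is 6.33 ± 5.03 CPM (SD, n = 6) and 2.45 ± 2.43 CPM (SD, n = 8), so it was the more frequent of the 2 chains on Day 2 and the rarer on Day 3. COL3A1, named after its values were seen, had 0 and 2 UMI. Of 28 genes of collagens and collagen processing other than COL1A1, 4 were tested and 1 was called by edgeR, where 32.5% of all tested genes were called. That gene, P4HA3, a subunit of prolyl 4-hydroxylase, fell by 0.86 on the log2 scale (standard error 0.24, edgeR adjusted p = 0.012). P4HB, its other subunit and a protein disulfide isomerase, was at 192 ± 21.7 and 195 ± 53.4 CPM. The median of the 4 was -0.22. DESeq2 called 2 of the 28, P4HA3 as lower and COL12A1 as higher. COL12A1, another collagen gene, was not tested by edgeR and was named after its values were seen. Of 23 other matrix glycoproteins and proteoglycans, 8 were tested, 0 rose and 1 fell. That was FBN1, encoding fibrillin-1, with 224 ± 27.9 and 93.7 ± 46.2 CPM (log2 fold change -1.05, standard error 0.24, edgeR adjusted p = 0.004), and the median of the 8 was -0.49.

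Among ADAMTS, ADAM and MMP proteases and their inhibitors other than ADAMTS1, 29 were in the table, 4 were tested and 0 were called by edgeR, 1 with an unadjusted p below 0.05, while DESeq2 called 3, all higher. ADAM10 was at 231 ± 13.596 and 154 ± 81.6 CPM, and ADAMTS4, which like ADAMTS1 cleaves proteoglycans, at 76.3 ± 15.14 and 43.1 ± 26.1 CPM (log2 fold change -0.59, standard error 0.27, edgeR adjusted p = 0.103). The median of the 4 was -0.28. Of the 18 genes of the 8-cell-stage list, 2 were tested, and both rose. FOLR1, a folate receptor, did so from 13.08 ± 3.00 to 420 ± 444 CPM (log2 fold change 5.43, standard error 0.90, edgeR adjusted p = 0.000414), and DESeq2 called 14 of the 18, all higher, against 20.0% called higher among all genes it tested.

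Markers of other cell types were counted because these 5 genes are also made by cumulus, stromal and immune cells. Oocyte and blastomere markers were abundant on both days and summed to 3934 to 12484 CPM in Day 3 embryos and 11030 to 12299 in Day 2 embryos, with DPPA3 at 2764 ± 364 CPM on Day 2 and 3286 ± 1037 CPM on Day 3. Of the 11 tested, edgeR called 5 lower and 1 higher on Day 3, and DPPA3 was not called. Of 18 cumulus or granulosa markers 14 were in the table, and their sum was 525.8 to 635 CPM on Day 2 and 201 to 587 CPM on Day 3, most of it HAS2 and STAR. The sum was lowest in Day3-E8, the embryo with the most IL18 and COL1A1, and highest among Day 3 embryos in Day3-E5. Single cumulus markers did not all follow the sum. TNFAIP6 had 1 UMI on Day 2 and 35 on Day 3, in all 8 Day 3 embryos, and was highest in Day3-E4 (44.8 CPM). VCAN was at 23.1 ± 9.14 CPM on Day 2 and 11.9 ± 8.85 CPM on Day 3. Both were named after their values were seen. The part of cumulus cells in the levels of the 5 genes was not tested. The gonadotropin receptors FSHR and LHCGR, CYP19A1 and AMHR2 have no entry in the table. Leukocyte markers (7 of 8 in the table) summed to 84.3 to 156 CPM on Day 2 and 59.8 to 156 CPM on Day 3. Among them CSF1R was at 86.0 ± 23.8 and 76.0 ± 23.5 CPM and LCP1 at 35.1 ± 8.64 and 17.3 ± 12.5 CPM. CD68 and CD79A, named after their values were seen, had 0 UMI on Day 2 and 17 and 16 UMI on Day 3. Stromal markers (7 of 8 in the table) summed to 6.09 to 25.1 CPM on Day 2 and 21.7 to 143 CPM on Day 3. On Day 3 most of it was PDGFRA, which rose from 4.57 ± 3.83 to 89.9 ± 40.5 CPM (log2 fold change 4.63, standard error 0.61, edgeR adjusted p = 9.08e-05), while on Day 2 COL1A2 had the higher mean. The part of PDGFRA-expressing cells in the levels of COL1A1 was not tested. Sperm markers (2 of 5 in the table) summed to at most 7.72 CPM.

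The genes whose levels followed each member most closely over the 8 Day 3 embryos were sought among the 5274 tested genes, as a description. IL18 was followed by RPL35, a ribosomal protein (r = 0.99), NUDT4 (r = 0.99) and SYT11 (r = 0.99). These 3 genes were also called higher on Day 3, with log2 fold changes of 2.518, 2.195 and 3.105. COL1A1 was followed by EIF5A2, a translation factor (r = 0.98), FTSJ1, an RNA methyltransferase (r = 0.96), and HEXIM1, an inhibitor of transcription elongation (r = 0.96). ADAMTS1 was followed by LOC615809 (r = 0.98), RHEBL1, a small GTPase (r = 0.97), and LENG8 (r = 0.97), and C3 by DNAJC3, a chaperone of the endoplasmic reticulum (r = 0.95), SHD (r = 0.94) and TOB2 (r = 0.93).

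GRO1 stood apart here. Its closest genes were IPO11, an importin (r = 0.96), BOD1L (r = 0.95) and C3H1orf109 (r = 0.95). The first 2 did not differ between the days by the test (log2 fold changes of -0.15 and 0.02, edgeR adjusted p = 0.729 and 0.96). The 3 genes nearest to each of the other 4 members were all called higher on Day 3. The r values share the 8 embryos, their depth and their barcode sets.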

How the data were processed

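Blastomeres were profiled by SCRB-Seq, a plate-based 3′ method. The authors mapped reads to bosTau7 and the ERCC spike-ins with STAR 2.5.2b and deposited whole-number UMI counts per gene, made with the Drop-seq pipeline, for 170 cells. A normalised table that the authors also deposited was not used. Here 92 spike-in rows (1.78% of UMI) and cells under 2000 UMI were left out, counts were summed per embryo, and CPM were computed. All genes were tested with edgeR 4.0.16 (TMM, filterByExpr, quasi-likelihood test, Benjamini-Hochberg adjusted p of 0.05), with DESeq2 1.42.0 as an alternative. Standard errors were taken from the quasi-F statistic. On simulated counts for Day 3 against Day 2 with 200 of 10772 genes changed 4-fold, 100% of the 163 changed genes tested were recovered with 6 false calls. The simulation gave every gene the same relative spread between embryos and left genes with low counts unchanged. Its recovery therefore does not cover genes as uneven between embryos as GRO1. Intervals and limits cover counting error only. Correlations used log2(CPM + 1) and all 40320 orders of 8 embryos.

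The 5 genes and all gene lists were chosen with earlier results of these data known. Besides the 5, the genes named are, per list, up to 4 called genes with the largest fold change (or, where fewer than 2 were called, the 2 with the highest mean CPM), the 2 most abundant of each marker list, and the 3 genes most like each member. Gene names match RefSeq symbols for all 5. Its assembly differs from the authors' build, so no coordinates or sequences are given.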

Additional observations from a re-analysis of the deposited data

Results flagged for a closer look

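Among the 20 groups of embryos examined (level and share at equal depth of 5 genes on 2 days), 1 held an embryo that lay far from the others. GRO1 stood at 471 CPM in Day3-E2, and its gap to the next embryo, Day3-E4 at 218 CPM, was 0.54 of the whole Day 3 range. Chance flags about 1 group in 20. The level of Day3-E2 came from 13 of 14 cells. CXCL3 was also highest in that embryo, but its reads may be exchanged with those of GRO1, so it is not an independent check.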

How the results depend on the processing

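For Day 3 against Day 2 the number of genes called was 1712, and 1327 to 2163 when 1 embryo was left out. It was 702 with the embryo number as a replicate block (numbers 1 to 6), 1008 over the same embryos without the block and 351 with the first barcode set only, where Day 3 is 2 embryos. The embryo numbers did not pair the embryos: 0 of 6 pair correlations exceeded 0.1 and 0 embryos correlated best with their own number. Without TMM the split was 890 higher and 981 lower in place of 1117 and 595, and the median log2 change of all genes was -0.27 in place of -0.04. DESeq2 called 2561 genes and a fit without a filter 2190. The setting with numbers 1 to 6 without the block, the second expectation for shared cells and the levels without the deepest Day 3 cell were chosen after seeing the data.

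Shares of cells moved with the depth drawn. At 20000 UMI per cell the mean Day 2 share was 8.88% for GRO1, 7.64% for IL18, 4.47% for C3, 2.00% for COL1A1 and 1.34% for ADAMTS1, and without thinning 20.0%, 25.5%, 15.9%, 10.95% and 8.86%. At 5000 UMI it was 1.71% for IL18. The Day 3 share of C3 was 30.8% at 20000 UMI and 36.9% without thinning.

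Beside the product of shares in place of the counting expectation, the observed number of cells with both genes was 1.09 times the expectation for GRO1 with IL18, 1.15 with COL1A1 and 1.09 with ADAMTS1, 1.01 for IL18 with ADAMTS1, 1.14 for C3 with ADAMTS1 and 1.03 for COL1A1 with ADAMTS1.

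The 4 relations between genes that passed the threshold did not pass it in 3 settings. With log2(CPM + 10), r was 0.81 for GRO1 and IL18, 0.78 for IL18 and COL1A1, 0.74 for C3 and COL1A1 and 0.85 for COL1A1 and ADAMTS1. With cells of at least 10000 UMI they were 0.82, 0.78, 0.80 and 0.80, and without Day3-E1 0.81, 0.67, 0.62 and 0.70. With effective library sizes (TMM) they passed, and so did IL18 with C3 (r = 0.79). The cause was not tested.

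Which of the 5 genes were tested between the days changed with the setting, through the filter on low counts. Of 23 alternative fits IL18 was tested in 23, ADAMTS1 in 14, GRO1 and COL1A1 in 13 and C3 in 8. GRO1 and COL1A1 had no value without Day3-E2, Day3-E3, Day3-E4, Day3-E6, Day3-E7 or Day3-E8, and ADAMTS1 had none without any 1 of Day3-E3 to Day3-E8. With the block and with the first barcode set IL18 alone was tested, and on plates 2 and 3 IL18 and ADAMTS1. Where tested, log2 fold changes were 5.06 to 5.96 for IL18, 5.75 to 6.69 for ADAMTS1, 5.33 to 5.86 for GRO1, 5.22 to 6.01 for COL1A1 and 3.58 to 4.02 for C3. Among the results that an alternative gave a value for, none reversed.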
